A study of Mus musculus with 8 samples.

Results

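Igfbp2, Igfbp5 and Irs1 are the 3 genes of insulin-like growth factor (IGF) signalling described here, out of 779 genes in a single-cell RNA table of mouse stomach glands. They were chosen from earlier results on the same table, in which all 3 were among the genes with the lowest relative level in 1 cluster of barcodes, so every level below is a description and no test was made. The mice carried Atp4bCre, Rosa26NICD and Arid1a flox/flox and were 23 weeks old. Atp4b encodes a subunit of the gastric proton pump, and its promoter drives Cre in parietal cells. There Cre turns on the Notch intracellular domain and deletes the floxed part of the chromatin remodelling gene Arid1a. Gland cells with high EPCAM, a surface protein of epithelia, and low uptake of a dead-cell dye were sorted and run on the droplet-based 10x platform. By the labels there were 8 samples, all of that genotype and with no control group, and it is left unsaid whether each came from its own animal. The table's 1460 cell barcodes are all distinct and carry no sample number, so they count as 1 pooled sample, and whether libraries share barcodes could not be counted.

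The genes were followed over the 1388 barcodes with 100 or more unique molecular identifiers (UMIs, the tags that count single RNA molecules). These barcodes held 439743 UMIs, with a median of 286 and a range of 100 to 1082. The genes of the table that matched the annotation lie on chromosome 1 before position 89933290, so a barcode's total is its depth in that stretch only. Levels are given per 1000000 UMIs of the table (CPM). Intervals in parentheses are 95% intervals for counting error: Poisson for a level, Clopper-Pearson for a share and conditional binomial for a ratio. They treat UMIs as independent draws, so where a few barcodes hold most of a gene's UMIs the true uncertainty is larger.

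IGF binding proteins are secreted proteins that hold insulin-like growth factors in the fluid around cells and can keep them from, or hand them to, the IGF receptor. Igfbp2 encodes a binding protein with a preference for IGF2, and Igfbp5 one that also attaches to the extracellular matrix. Irs1 works inside the cell: it encodes the insulin receptor substrate that docks onto activated insulin and IGF receptors and recruits phosphatidylinositol 3-kinase. Fn1, followed beside them, encodes the matrix protein fibronectin. Resp18, followed as well, encodes a protein of the secretory granules of endocrine cells.

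Igfbp2 (ENSMUSG00000039323.18) spans chr1:72824503-72852474 on the plus strand of GRCm38 in the GENCODE vM21 annotation. Igfbp5 (ENSMUSG00000026185.8) spans chr1:72857932-72874884 on the minus strand, so the pair lies tail to tail. The gap between their ends is 5457 bases and holds 0 annotated genes. Irs1 (ENSMUSG00000055980.2) lies 9.36 Mb further on, at chr1:82233101-82291416 on the minus strand, and Fn1 lies 1.17 Mb before Igfbp2. The 100 bases before the RefSeq start of each gene (GRCm38.p6) are printed to show a feature that played no part in the choice of the genes. Capitals mark CG dinucleotides, which read the same on both strands.
Igfbp2, chr1:72824380-72824479, plus strand: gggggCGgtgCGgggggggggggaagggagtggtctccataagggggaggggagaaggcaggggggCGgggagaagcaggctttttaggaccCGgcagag
Igfbp5, chr1:72874866-72874965, minus strand: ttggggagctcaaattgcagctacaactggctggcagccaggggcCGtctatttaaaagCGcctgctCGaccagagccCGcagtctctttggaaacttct
Irs1, chr1:82291440-82291539, minus strand: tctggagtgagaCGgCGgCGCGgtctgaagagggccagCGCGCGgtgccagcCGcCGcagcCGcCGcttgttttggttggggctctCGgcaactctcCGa
The Igfbp2 and Igfbp5 stretches hold 4 CG dinucleotides each, a number that 44.1% of 32851 RefSeq promoter windows of this length reach or pass. The Irs1 stretch holds 13, which 9.45% of the windows reach or pass. A second annotated start of Igfbp2 also has 4 in its window.

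Igfbp2 was the most concentrated of the 3 genes. Its 59 UMIs lay in 24 of 1388 barcodes, 1.73% (1.11 to 2.56), at a mean level of 134 CPM (102 to 173). The richest barcode held 12 Igfbp2 UMIs among 536, and those ranked next held 7 of 272, 6 of 139 and 5 of 135. These 4 barcodes reach 50% of all Igfbp2 UMIs, while the other 20 hold 1 to 3 each. Relative to all UMIs of the barcode, Igfbp2 was highest in the third of these, at 43165 CPM, and stood at 22388 CPM in the first. Had the same UMIs been spread in proportion to barcode totals, 57.5 barcodes would have held one.

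Igfbp5 was spread over more barcodes but was still uneven. It had 149 UMIs in 92 barcodes, 6.63% (5.38 to 8.07), and a mean level of 339 CPM (287 to 398). Of these barcodes 62 held 1 UMI, 20 held 2 and 10 held 3 or more. The highest counts were 9 UMIs of a total of 157, 8 of 440, 6 of 286, 5 of 295 and 4 of 142. A spread in proportion to totals would have put a UMI in 140 barcodes, so the observed number was 0.658 of it, against 0.417 for Igfbp2. The 10 richest barcodes held 31.5% (24.2 to 39.7) of the Igfbp5 UMIs and 76.3% (63.4 to 86.4) of the Igfbp2 UMIs.

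Irs1 showed no such concentration. Its 145 UMIs came from 136 barcodes, 9.80% (8.28 to 11.5), and its mean level was 330 CPM (278 to 388). Only 7 barcodes held 2 Irs1 UMIs, 1 held 3, and the other 128 held 1. A spread in proportion to totals gives 136 barcodes, which is the number observed (ratio 0.998). Igfbp5 and Irs1 thus had nearly the same number of UMIs and differed in how these were shared out.

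**Figure D1:**
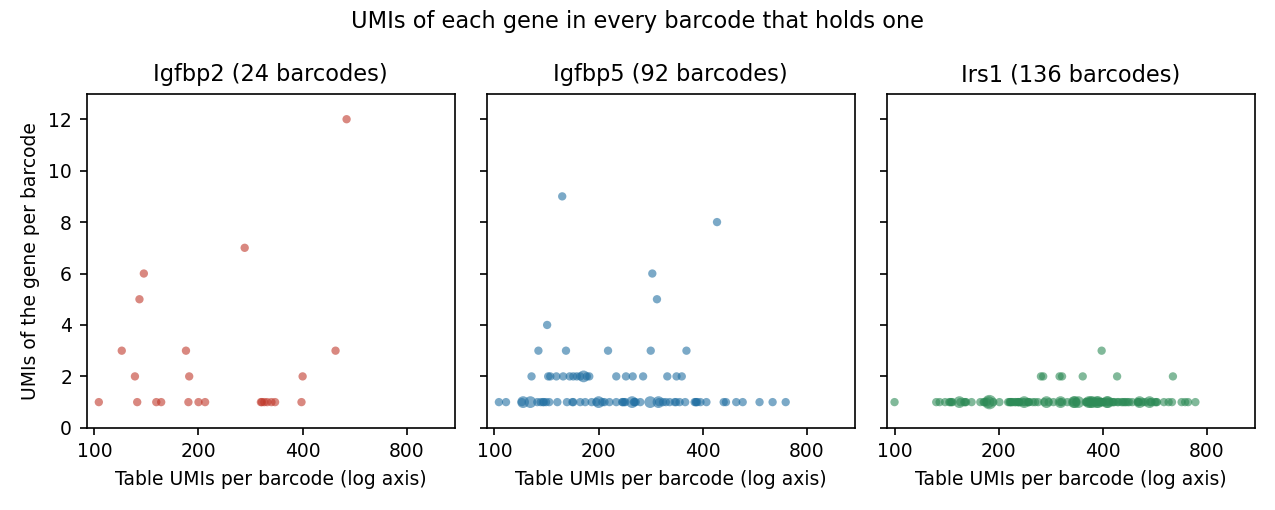
Each point is a barcode with at least 1 UMI of the gene named above the panel; the x axis is the barcode's UMIs in the table (log axis), the y axis its UMIs of that gene, and a point's area grows with the number of barcodes at the same place. Igfbp2 reaches 12 UMIs and Igfbp5 9 UMIs in a barcode, while Irs1 stays at 1 UMI in 128 of 136 barcodes.

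The same measure was taken for genes with a like number of UMIs, within a factor of 1.5. Among 34 such genes the number of barcodes over the evenly spread number had a median of 0.970, and 2 were below Igfbp2, namely Resp18 and Myl1. Among the 45 genes like Igfbp5 the median was 0.985, and the secretory granule gene Ptprn was the 1 gene below it. For Irs1, 32 of 44 like genes were lower. The share in the 10 richest barcodes gave the same order: its median over like genes was 24.9% for Igfbp2 (76.3% observed), 13.2% for Igfbp5 (31.5%) and 13.2% for Irs1 (13.1%).

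**Figure D2:**
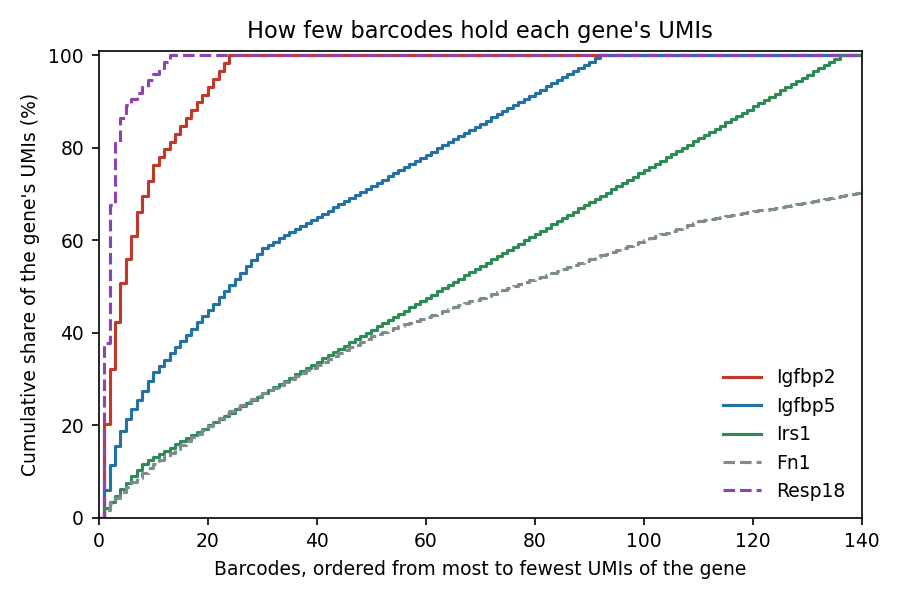
The lines show the cumulative share of a gene's UMIs (y axis, %) over barcodes ordered from most to fewest UMIs of that gene (x axis, number of barcodes); solid lines are Igfbp2, Igfbp5 and Irs1, dashed lines Fn1 and Resp18. Igfbp2 reaches 100% at 24 barcodes, Igfbp5 at 92 and Irs1 at 136, and Resp18 is steeper than all of them with 81.1% of its UMIs in 3 barcodes.

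All 3 genes had a higher level in shallow than in deep barcodes, and the 2 binding protein genes most of all. Igfbp5 was at 1277 CPM (988 to 1625) in the 330 barcodes with fewer than 200 UMIs. It was at 323 CPM (251 to 411) in the 712 barcodes from 200 to under 400 UMIs and at 88.4 CPM (50.5 to 144) in the 346 barcodes of 400 or more. The first level is 14.4 times the last (8.27 to 26.7). Of the 240 genes with 50 or more UMIs, Resp18 alone had a larger ratio of shallow to deep barcodes than Igfbp5, at 35.0, and the median over all of them was 1.17.

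More UMIs per barcode normally give a gene more chances to be seen, yet detection of Igfbp5 went the other way. A UMI of it was found in 11.5% (8.28 to 15.5) of the shallowest barcodes, 6.32% (4.65 to 8.37) of the middle ones and 2.60% (1.20 to 4.88) of the deepest. Igfbp2 had the same direction, with 3.33% (1.68 to 5.89), 1.40% (0.676 to 2.57) and 0.867% (0.179 to 2.51), and these intervals overlap. Its level was 503 CPM (329 to 737), then 77.2 (44.2 to 125) and 94.0 (54.7 to 150). The shallow level was 5.35 times the deep one, rank 5 of 240, but 12 of the 17 UMIs in the deep barcodes belong to the barcode richest in Igfbp2.

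Irs1 detection rose with depth, from 7.58% (4.96 to 11) to 9.69% (7.62 to 12.1) and 12.1% (8.89 to 16.1), with overlapping intervals. Its level nevertheless fell, from 484 CPM (313 to 714) to 367 (289 to 459) and 243 (177 to 326). The ratio of shallow to deep was 1.99 (1.17 to 3.32), rank 30 of 240. After each barcode was thinned to 100 UMIs, Igfbp2 was detected in 1.15% of barcodes, Igfbp5 in 3.46% and Irs1 in 3.96%. Fn1 was 3.53 times as high in shallow as in deep barcodes, and on the other side stood Ptma (prothymosin alpha) at 0.667 and the glutathione transferase gene Gsta3 at 0.555. Shallow and deep barcodes therefore differ in other transcripts too, and the part of depth itself in these levels was not tested. Within each depth range the UMIs of Igfbp2 and Igfbp5 were still gathered in fewer barcodes than an even spread within it gives, at 0.181 to 0.632 of it for Igfbp2 and 0.576 to 0.705 for Igfbp5. For Irs1 this ratio lay between 0.959 and 1.04.

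**Figure D3:**
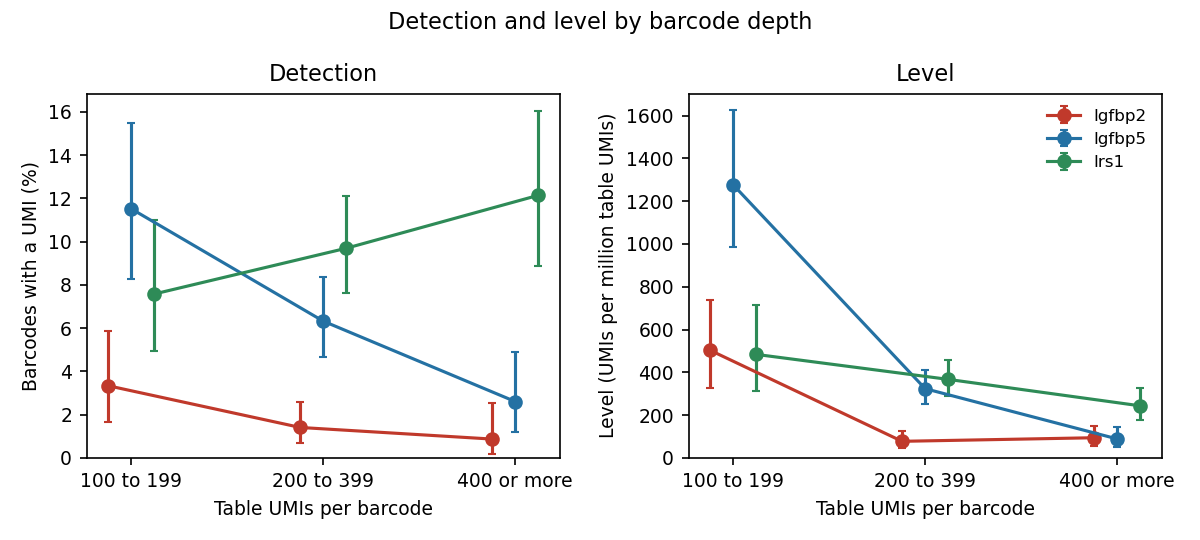
Left, the share of barcodes with a UMI (%, Clopper-Pearson 95% intervals); right, the level in UMIs per 1000000 table UMIs (Poisson 95% intervals); the x axis gives the range of UMIs per barcode and colours give the gene. Igfbp5 falls from 11.5% to 2.60% of barcodes and from 1277 to 88.4 CPM, while Irs1 detection goes from 7.58% to 12.1%.

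Few barcodes held more than 1 of the 3 genes, and the low detection of each gene alone already gives few shared barcodes. Of 1388 barcodes, 1149 had none of them, 227 had 1, 11 had 2 and 1 had all 3. Igfbp2 and Igfbp5 met in 4 barcodes, which is 16.7% (4.74 to 37.4) of the Igfbp2 barcodes and 4.35% of the Igfbp5 barcodes. Igfbp5 was found in 6.45% (5.21 to 7.89) of barcodes without Igfbp2. Equal shares within the depth ranges would give 1.98 shared barcodes. In the shallowest range 3 of 11 Igfbp2 barcodes had Igfbp5, or 27.3% (6.02 to 61.0), against 11% of the rest. In the middle range it was 1 of 10 against 6.27%, and in the deepest 0 of 3 against 2.62%. None of these ranges shows a difference beyond counting error.

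The 4 shared barcodes had totals of 103, 120, 151 and 316 UMIs. The barcode with 120 UMIs was among the 7 barcodes with 3 or more Igfbp2 UMIs, with 3 of them and 1 of Igfbp5. The other 3 held 1 of Igfbp2 with 1 or 2 of Igfbp5, so none of the 4 had 3 or more Igfbp5 UMIs. Irs1 was found in 1 of 24 Igfbp2 barcodes, 4.17% (0.105 to 21.1), against 9.90% of those without Igfbp2, which lies within that interval. Equal shares in the depth ranges give 2.17 barcodes with both. Irs1 was found in 9 of 92 Igfbp5 barcodes, 9.78% (4.57 to 17.8), against 9.80% (8.23 to 11.5) without, and equal shares in the depth ranges give 8.33. By range the Irs1 share in Igfbp5 barcodes was 4 of 38, 4 of 45 and 1 of 9.

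Summed over all depths, barcodes with Igfbp2 also held more Fn1. Fn1 stood at 3182 CPM in the 24 barcodes with Igfbp2 and at 1070 CPM in the 1364 without, a ratio of 2.97 (1.77 to 4.70), or 2.37 when standardised over depth ranges. From the shallowest range to the deepest it was 1.28 (0.409 to 3.07), 2.49 (1.06 to 4.99) and 6.33 (2.28 to 14.2), the last from 1 barcode. The 19 Fn1 UMIs came from 8 of the 24 barcodes, 33.3% (15.6 to 55.3), against 20.2% of the others, which lies within that interval. The barcode richest in Igfbp2 held 6 of them and the second richest 4. Without the 3 barcodes richest in Igfbp2 the ratio was 1.67. Among the 7 barcodes with 3 or more Igfbp2 UMIs, Fn1 was found in 3 and reached 5962 CPM (2976 to 10668).

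Resp18 gave the highest ratio in barcodes with Igfbp2, 44.2 (26.6 to 72.2), and it rests on 1 barcode. That barcode held 28 Resp18 UMIs of its total of 187, 6 of the secretogranin gene Scg2, 2 of Ptprn and 1 of Igfbp2. The other 23 barcodes with Igfbp2 held 0 Resp18 UMIs. Of 12 listed endocrine markers 3 were measured, Resp18, Ptprn and Scg2, and 36 of their 39 UMIs in Igfbp2 barcodes were in the barcode richest in Resp18. Ptprn rested on it less. It was at 3.36 times (1.07 to 8.09) with Igfbp2, from 5 UMIs in 3 barcodes. Resp18 itself had 74 UMIs in 13 barcodes, and its 3 richest, with 28, 22 and 10 UMIs, held 0 Fn1, Igfbp5 and Irs1 UMIs.

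Past a 2-fold difference, 10.0% of 239 genes were higher and 12.6% lower in barcodes with Igfbp2. This background is wide because a tested gene had a median of 6 UMIs in these barcodes, and 15 had none. Intervals lay wholly above 1 for 24 genes and wholly below 1 for 8. The intervals make no allowance for the 239 genes looked at, and the genes named are those at the ends of the ranking. Beside Resp18 and Fn1, the genes with the firmest excess were Rev1, a polymerase that copies damaged DNA (6.15-fold, 1.93 to 15.2, from 5 UMIs), and the membrane protein gene Tm4sf20 (2.55-fold, 1.42 to 4.26). Itm2c, another membrane protein gene, was 1.88-fold (1.36 to 2.55) and was present in 21 of 24 barcodes. Standardised over depth it was 1.51-fold, and the interval includes 1 within each depth range. Itm2c is itself 3.77 times as high in shallow as in deep barcodes, and the barcodes with Igfbp2 are shallower (median 204.5 UMIs against 286). Fam134a, Mob4, Farsb, Dst and Fhl2 followed, between 1.73-fold and 2.84-fold. Gsta3 was lower, at 0.462 times (0.327 to 0.635). The hedgehog ligand gene Ihh had 1 UMI there against 560 elsewhere (0.130 times, 0.00328 to 0.726), and Tuba4a, Cox5b and Tmbim1 lay between 0.534 and 0.796 times.

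Barcodes with Igfbp5 differed less from the rest. Of 239 genes, 1.26% were 2-fold or more higher, namely Ccl20, Fbxo36 and Igfbp2, and 4.18% were 2-fold or more lower. Intervals lay wholly above 1 for 12 genes and wholly below 1 for 10, again without allowance for the number of genes. The chemokine gene Ccl20 stood at 2500 CPM against 1013, a ratio of 2.47 (1.84 to 3.25). Its 58 UMIs lay in 16 of the 92 barcodes, 17.4%, against 9.80% of the others, and 35 of them were in 3 barcodes. By depth the ratio was 4.23 (2.29 to 7.57), 1.90 (1.30 to 2.69) and 1.16 (0.235 to 3.49) from the shallowest range to the deepest.

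Fn1 was 1.58 times (1.11 to 2.19) as high in barcodes with Igfbp5, at 1681 CPM against 1066, and 1.26 times after standardising over depth. The depth ranges did not share a direction: 1.5 (0.879 to 2.43), 0.548 (0.234 to 1.10) and 3.59 (1.74 to 6.66). Fn1 was found in 23 of 92 barcodes, 25% (16.6 to 35.1), against 20.1% of the rest. Of the 10 barcodes with 3 or more Igfbp5 UMIs, 5 had Fn1. Resp18 had 1 UMI in the barcodes with Igfbp5 against 73 in the others, and 60 of those 73 came from 3 barcodes.

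The ribosomal protein gene Rpl37a was 1.14 times (1.11 to 1.17) as high with Igfbp5, and Tram1, which helps proteins enter the endoplasmic reticulum, 1.31 times (1.12 to 1.52). Pecr, Zfp451, the Wnt receptor gene Fzd5, Paqr8 and Eef1b2 followed, between 1.07 and 1.76 times. Itm2c was at 1.33 times (1.09 to 1.6), but at 1.05 after standardising over depth, and its intervals in the single depth ranges all include 1. The intestinal alkaline phosphatase gene Alpi had 1 UMI with Igfbp5 against 246 without, a ratio of 0.0730 (0.00184 to 0.410), but 83 of its 247 UMIs lay in 3 barcodes. The interleukin 1 receptor gene Il1r1 was at 0.307 times (0.112 to 0.675), from 6 UMIs in 6 barcodes. Gsta3, Ptma and Ctdsp1 were at 0.708, 0.787 and 0.627 times.

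Barcodes with Irs1 were close to the rest in most genes. None of the 239 genes was 2-fold or more higher (0%), and 3.77% were 2-fold or more lower. Only 8 intervals lay wholly above 1 and 20 wholly below 1, without allowance for the number of genes, so single intervals close to 1 carry little weight. Il1r1 led, at 1310 CPM against 753, a ratio of 1.74 (1.3 to 2.3), with a UMI in 36 of 136 barcodes. From the shallowest range to the deepest this ratio was 0.788 (0.0187 to 5.12), 2.08 (1.43 to 2.96) and 1.35 (0.806 to 2.16). With Igfbp5 the Il1r1 ratio was 0.534 (0.0127 to 3.47), 0.226 (0.0462 to 0.670) and 0.560 (0.0671 to 2.06). In both sets the interval excludes 1 in the middle range only. Summed over all depths the direction of Il1r1 was thus opposite in Irs1 and Igfbp5 barcodes, and that difference was not tested. Hs6st1, which adds sulfate to heparan chains, was at 1.37 times (1.04 to 1.79), Gmppa at 1.26 (1.04 to 1.53) and the coactivator gene Ncoa2 at 1.47 (1.00 to 2.09). Hspe1, Cox5b, Rpl37a, Rpl31, Nop58 and Hspd1 were between 1.03 and 1.20 times, and the intervals of Nop58 and Hspd1 reach 1.

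On the lower side, Irs1 barcodes held 0 Resp18 UMIs against 74 elsewhere. Since 60 of the 74 lie in 3 barcodes, and equal shares in the depth ranges would give 1.34 barcodes with both genes, no fall of Resp18 can be read from this. Inpp5d, a phosphatase that takes down the lipid product of phosphatidylinositol 3-kinase, was also at 0 (interval of the ratio 0 to 0.633). Its 51 UMIs lie in 28 barcodes, and only 2.24% of barcodes without Irs1 had one, so no fall of Inpp5d can be read either. Ptprn was at 0.152 times (0.0182 to 0.562), the sterol hydroxylase gene Cyp27a1 at 0.159 (0.0190 to 0.590) and Tm4sf20 at 0.463 (0.290 to 0.705). The 113 UMIs of Ptprn lie in 40 barcodes, of which 2, or 5% (0.611 to 16.9), had Irs1, against 9.80% of all barcodes. Counted by barcodes, the difference for Ptprn is within counting error. Fn1 was at 1.22 times (0.917 to 1.60), which is within counting error. It was found in 32 of 136 barcodes, 23.5% (16.7 to 31.6), against 20% without Irs1.

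**Figure D4:**
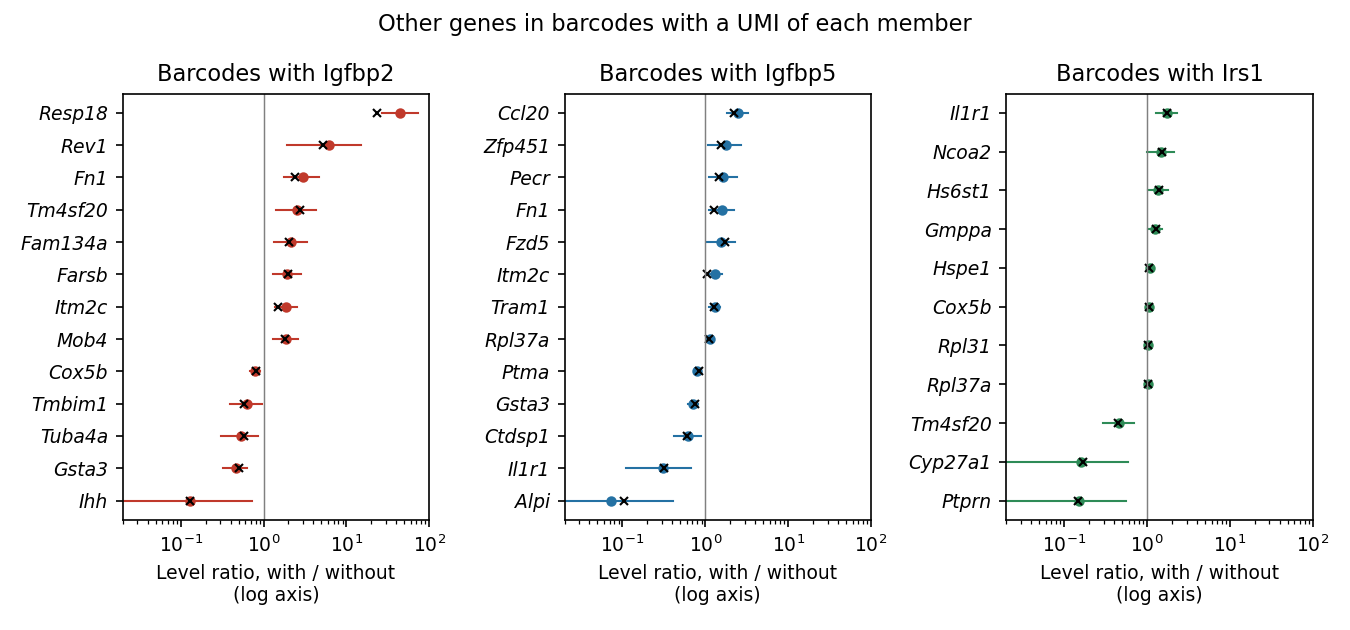
Points are ratios of a gene's level in barcodes with a UMI of Igfbp2, Igfbp5 or Irs1 over barcodes without (x axis, log), lines are 95% counting intervals drawn down to 0.02, and crosses are ratios standardised over depth ranges; up to 8 of the highest and 5 of the lowest genes are shown, without genes at 0. Resp18 lies at 44.2 in the left panel and rests on 1 barcode, whereas all ratios above 1 in the right panel lie between 1.03 and 1.74.

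Of 43 listed genes of IGF and insulin signalling, 14 had a row and all 14 had a UMI. Aside from the 3 genes above, Gigyf2, which encodes a partner of the receptor adaptor GRB10, had 469 UMIs in 393 barcodes. Creb1, a transcription factor gene, had 404 in 327. The kinase gene Sgk3 and the phosphatase genes Inpp5d, Inpp1 and Inpp4a had between 45 and 84. The receptors and the growth factors themselves were not analysed here. With 8 list members tested in each set, 2 were 2-fold or more higher with Igfbp2 and 1 lower (Inpp5d, at 0), beside 10.0% and 12.6% of all tested genes. The higher ones were Igfbp5, at 3.05 times (1.1 to 6.8) or 1.97 after standardising over depth, and Sgk3, at 4.27 times (0.853 to 13.2) from 3 UMIs. With Igfbp5 it was 1 higher (Igfbp2) and 0 lower, beside 1.26% and 4.18% of all. With Irs1 it was 0 higher and 2 lower (Igfbp2 and Inpp5d), beside 0% and 3.77%. With so few members these counts set the list apart from the other genes in no set. Median ratios of the list were 1.11, 1.10 and 0.903, beside medians over all tested genes of 1.01, 0.997 and 1.00. Gigyf2 was at 0.639 times (0.434 to 0.911) with Irs1.

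Igfbp5 and fibronectin are also known from connective tissue, so markers of other cell types were counted beside them. Of 10 stromal and smooth muscle markers 3 were measured, Col3a1, Col5a2 and Des, with 1 UMI each in all 1388 barcodes. Of these 3 UMIs, 0 lay in Igfbp2 barcodes and 1, of Col5a2, in Igfbp5 barcodes. So few UMIs cannot show whether stromal cells are present in or absent from either set. The matrix and adhesion list held 4 genes with 50 or more UMIs, Fn1, Dst, Itm2c and the epithelial actin-bundling gene Vil1. Epcam, the marker of the sort, was not analysed here, and Vil1 had a UMI in 854 of the 1388 barcodes. With Igfbp2 2 of the 4, Fn1 and Dst, were 2-fold or more higher, beside 10.0% of all tested genes. With Igfbp5 and Irs1 none was, which is the background of those sets (1.26% and 0%). Vil1 was at 0.823 times (0.494 to 1.29) with Igfbp2 and 0.959 times (0.763 to 1.19) with Igfbp5, so it was present at about the level of the other barcodes. Of the 9 immune markers 7 were measured, and Ctla4, Cd28, Icos and Slc11a1, with 3 to 13 UMIs in all, had 0 in barcodes with any of the 3 genes. They were found in only 6, 3, 1 and 2 barcodes in all, so this cannot show whether immune cells are absent from the sets. Il18r1, the most abundant of the list, was at 1.86 (0.886 to 3.46), 0.995 (0.609 to 1.54) and 1.07 times (0.766 to 1.46) with Igfbp2, Igfbp5 and Irs1. The summed list was at 1842 CPM with Igfbp2 against 1296 without, 1121 against 1314 for Igfbp5 and 1288 against 1305 for Irs1, and its part in the results was not tested. The proton exchanger gene Slc9a4, the 1 measured gene of the parietal list, was at 0.640 (0.292 to 1.22), 0.839 (0.610 to 1.13) and 0.907 times (0.731 to 1.12) with Igfbp2, Igfbp5 and Irs1. The 4 measured cycling genes had median ratios of 0.723, 0.627 and 0.935.

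Seen from the other side, barcodes set apart by another gene differed in the 3 genes as follows. In the 110 barcodes with 2 or more Fn1 UMIs (median 294.5 UMIs in all), Igfbp2 was at 585 CPM (362 to 894) against 94.2 in the rest, but 19 of its 21 UMIs there came from 2 barcodes. Irs1 was at 585 CPM (362 to 894) against 307, from 19 of the 110 barcodes with no more than 2 UMIs each. Igfbp5 was at 473 CPM (276 to 758) against 327.

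In the 139 barcodes with the largest share of Gsta3 Igfbp2 had 0 UMIs, against 152 CPM in the rest. Its share of these barcodes, 0% (0 to 2.62), was not distinguishable from the 1.73% over all barcodes. Igfbp5 was at 175 CPM (75.4 to 344) there. In the 126 barcodes with 3 or more UMIs of the small GTPase gene Arl4c, Igfbp5 and Irs1 were both at 155 CPM (62.3 to 319), against 361 and 351 in the rest. These barcodes had a median of 322 UMIs, against 286 over all barcodes, and the part of depth was not tested. In the other direction, Arl4c was at 0.872 times (0.641 to 1.16) with Igfbp5 and 0.832 times (0.667 to 1.03) with Irs1, and both intervals include 1. In the 42 barcodes with 3 or more Ccl20 UMIs, Igfbp5 was at 550 CPM (237 to 1084), from 8 UMIs in 5 barcodes, against 332 CPM in the rest. That ratio of 1.66 (0.702 to 3.36) is within counting error. In the 64 barcodes with 3 or more UMIs of Ptpn18, a phosphatase gene of the tuft list, Igfbp5 was found in 4.69% (0.977 to 13.1) and Irs1 in 7.81% (2.59 to 17.3), at a median depth of 323.5 UMIs. Their shares over all barcodes, at a median of 286, were 6.63% and 9.80%. None of these sets lacked Igfbp5. The 13 barcodes with Resp18 held 0 Irs1 UMIs, which allows up to 650 CPM and so gives no background level for it. The part of free RNA in barcodes with a single UMI was not tested.

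**Figure D5:**
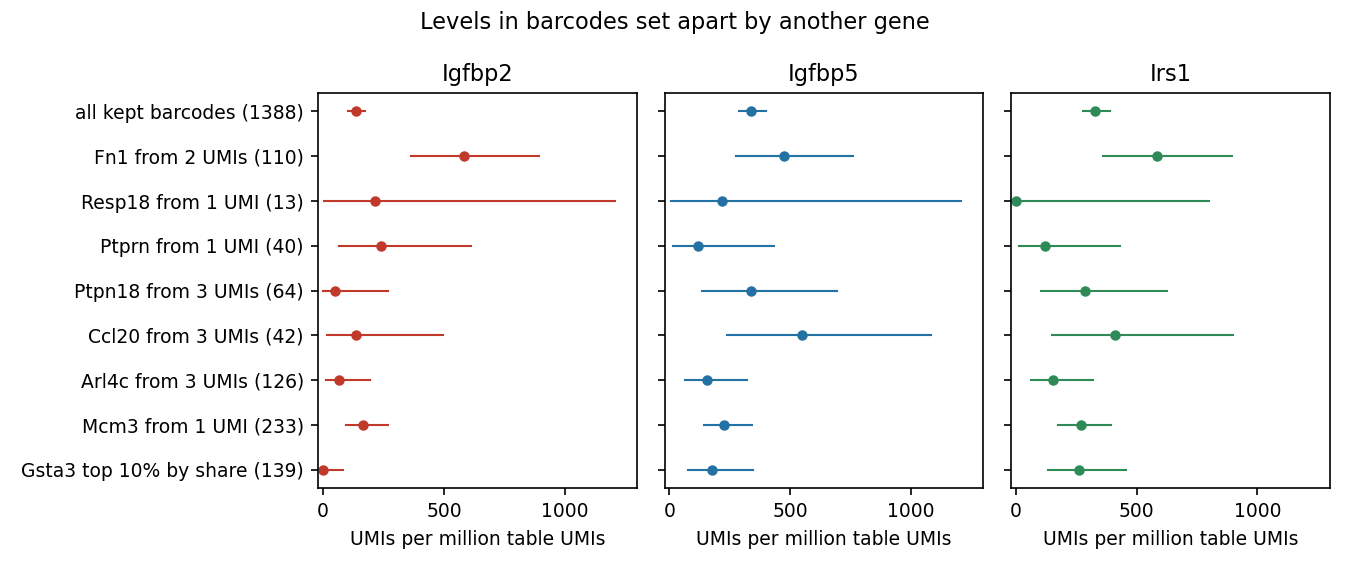
Points are the level of Igfbp2, Igfbp5 or Irs1 (UMIs per 1000000 table UMIs, without those of the gene that sets the barcodes apart) with Poisson 95% intervals; rows are sets of barcodes with their number in parentheses. Igfbp2 is at 585 CPM in Fn1-rich barcodes and at 0 in those richest in Gsta3, and intervals of small sets such as the 13 barcodes with Resp18 span most of the axis.

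The genes most like each of the 3 over the 1388 barcodes, by the correlation of residuals from a model of depth and abundance, were like them only weakly. Barcodes share their source and depth. For Igfbp2 they were Rev1 (0.14), Mob4 (0.12), Ino80d (0.0946), Fam134a (0.0941) and Fn1 (0.0941). For Igfbp5 they included Rpl37a (0.11), Ccl20 (0.0776), Usp37 (0.0752) and Pecr (0.0725). Igfbp2 followed Pecr at 0.0715, and Fn1 came after it at 0.0705. For Irs1 they were Atg16l1, Gmppa, Nbeal1, Ncoa2 and Hs6st1, between 0.0642 and 0.0715. Correlations this small in sparse counts describe the order of the genes and nothing more.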

How the data were processed

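A single count table was deposited, with genes in rows and barcodes in columns; its whole numbers were read as UMIs. Cell Ranger, Seurat 2.3.0 and mm10 are named, without their roles, per the submitters' processing notes. What annotation and earlier filters were applied is not stated in the labels or the file. The incomplete row Asb18, with 928 values that are all 0, was left out. The remaining 779 genes include 711 that match GENCODE vM21 by symbol. Barcodes under 100 UMIs (72) were left out. No doublet caller was run.

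The members and gene lists were chosen with earlier results of these data known. Ratios leave the UMIs of the set's defining gene out of the totals and cover genes with 50 or more UMIs. Named genes are the 10 highest and 5 lowest by the interval bound nearest to 1, the 5 best residual correlations (overdispersion 100, limit 10), Fn1, Resp18 and list members. Ratio code was tested on simulated data. Python 3.11.15, numpy 2.4.6, scipy 1.17.1 and matplotlib 3.10.9 were used. All barcode columns were read (0 were unused). Alternatives changed the filters on barcodes and genes, depth, totals and the richest barcodes. One item is not reported here.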

Additional observations from a re-analysis of the deposited data

Results flagged for a closer look

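Barcodes with fewer than 100 UMIs, which the comparisons leave out, also held these genes. Over the 72 such barcodes, with 5043 UMIs, Igfbp5 was at 1586 CPM (685 to 3126) from 8 UMIs in 6 barcodes, 4.68 times its level in the kept barcodes. Irs1 was at 1190 CPM (437 to 2590) from 6 UMIs in 6 barcodes, 3.61 times its level in the kept ones. A gene without a UMI there has an upper limit of 595 CPM (3 UMIs). The levels of both genes lie above it, but the interval of Irs1 reaches below it. In the nearest kept barcodes, those with fewer than 200 UMIs, Igfbp5 was at 1277 CPM (988 to 1625) and Irs1 at 484 CPM (313 to 714). For both genes these intervals overlap those of the barcodes left out. Igfbp2 had 1 UMI.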

How the results depend on the processing

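Of 120 alternative values, 100 stayed within counting error of the reported value or, for counts of genes, within 1.5 times of it. With barcodes of 200 or more UMIs, the share of UMIs in the 10 richest barcodes was 90.9% for Igfbp2, 43.4% for Igfbp5 and 15.8% for Irs1. Fewer UMIs and no shallow barcodes were left there, and the part of each was not tested. The Fn1 ratio with Igfbp2 was 1.67 without the 3 barcodes richest in Igfbp2. The Resp18 ratio with Igfbp2 was 23.5 when standardised over depth ranges. It was 0 with barcodes of 200 or more UMIs, with sets from 2 UMIs, with barcodes thinned to 100 UMIs and without the barcode richest in Resp18. The last of these alternatives was chosen after seeing the data, and the first 2 leave out that barcode by construction. The Resp18 ratio with Igfbp5 was 1.63 with barcodes of 200 or more UMIs and 0 in the other 3, all from 1 UMI. The share of Irs1 in Igfbp2 barcodes over that in the rest (0.421) was 0 when thinned and from 2 UMIs, and that in Igfbp5 barcodes (0.998) was 2.79 when thinned; the cause was not tested. The share of Igfbp5 in Igfbp2 barcodes over that in the rest (2.58) was 5.72 when thinned, 1.52 with barcodes of 200 or more UMIs and 1.55 from 2 UMIs, all within its wide counting error. With genes of 20 or more UMIs, 56 genes were 2-fold or more lower with Igfbp2 (30 before). With Igfbp5 they were 6 higher and 17 lower (3 and 10 before), and with Irs1 4 higher and 20 lower (0 and 9 before), as more sparse genes entered. Depth limits every pair of genes here: a single shared barcode decides several of the ratios.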

Other observations

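The chemokine gene Ccl20, singled out here after its values were seen, changed direction with depth in barcodes with Irs1. Its ratio to barcodes without Irs1 was 7.3 (4.03 to 12.9) below 200 UMIs, from 21 UMIs in 4 of 25 barcodes. It was 0.77 (0.495 to 1.15) from 200 to under 400 UMIs and 0.308 (0.0824 to 0.816) from 400 UMIs. In barcodes with Igfbp5 the ratio was above 1 in all 3 depth ranges. Whether Igfbp5 and Irs1 barcodes differ in this was not tested.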
